A study of Mus musculus with 24 samples.

Results

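MicroRNA reads that carry extra bases at the 3′ end were followed in mouse 3T9 cells, an immortalised line of embryo fibroblasts, for the forms filed as mixed, C or G additions. A form is 1 entry of the deposited count table, such as the mixed additions of one mature miRNA. Members were selected on their abundance, as the mature names with at least 1000 counts over the 21 labelled libraries, and 248 of 1221 names met this limit. They held 99.9% of all labelled counts. Their entries were 242 mixed, 182 C and 190 G forms, 614 in all, out of 6056 forms in the whole series, and 246 of the 248 names had at least 1 of them. The value reported is the share of a form, which is its count as a percent of all counts of the same miRNA in the same library. The counts that chose the names are given as a description. Just inside the limit were miR-340-5p with 1008 counts, of which 15 were mixed, and miR-212-3p with 1010 counts, of which 66 were mixed and 1 was G. Just outside were miR-1947-5p with 981 counts, of which 9 were mixed and 1 was G, and miR-129b-3p with 977 counts and none of the 3 classes.

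In the labelled libraries, cells had been given 300 µM 4-thiouridine (4SU), a uridine analogue built into new RNA, for a pulse of 3 h, and had then been moved to 1 mM uridine for a chase. The 7 chase times, 0, 2, 4, 6, 8, 10 and 12 h, were each sampled in 3 experiments, described by the submitters as biological replicates, and the labelled RNA was purified. The other 3 libraries were total RNA from cells given 4SU, with no chase time in the labels (total 4SU), RNA put through the purification from cells that had no 4SU (negative extraction), and total RNA from cells that had no 4SU (total unlabelled), with 1 library of each and so no replicate. All come from the same cell line, grown in 10% serum, and the labels name no genetic change. Library depth was 1133048 to 7886484 counts in labelled libraries and was lower at 12 h than at 0 h in each experiment. Depth was 4525638 counts in total 4SU, 283922 in the negative extraction and 6412428 in total unlabelled RNA. Markers were in keeping with the line: the 7 fibroblast and mesenchymal miRNAs checked took 14.0 to 26.7% of a library, the 5 blood miRNAs 0.0185 to 0.0734%, the 7 epithelial ones 0.0201 to 0.115%, the 3 muscle ones at most 0.00221% and the neural ones 0.0399 to 0.0610%.

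MicroRNAs are cut from hairpins and loaded into Argonaute proteins, where the bases near the 5′ end, called the seed, pair with messenger RNAs. The 3′ end is accessible to exonucleases and to terminal nucleotidyltransferases, which add bases without a template. Addition of U by TUT4 and TUT7 and of A by TENT2 (also called GLD2) are the best-known reactions in mammals. C and G additions, and tails of more than a single kind of base, are described less often.

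The sequences below belong to the miRNAs on which the results turn, from RefSeq on build GRCm38.p6, written 5′ to 3′ with the seed (bases 2 to 8) in capitals. The first pair held most of the mixed and of the C counts.
miR-92a-3p: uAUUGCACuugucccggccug
miR-21a-5p: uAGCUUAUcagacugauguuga
The next 6 belong to miRNAs whose mixed or C share changed over the chase. let-7c-5p and let-7g-5p share the seed GAGGUAG.
miR-301a-3p: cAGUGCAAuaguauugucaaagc
miR-221-5p: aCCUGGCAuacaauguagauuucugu
miR-671-3p: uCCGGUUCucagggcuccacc
miR-125b-1-3p: aCGGGUUAggcucuugggagcu
let-7c-5p: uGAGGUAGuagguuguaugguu
let-7g-5p: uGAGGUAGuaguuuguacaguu
miR-99b-5p is shown beside miR-100-5p, its seed relative.
miR-99b-5p: cACCCGUAgaaccgaccuugcg
miR-100-5p: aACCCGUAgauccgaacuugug
The last group had the highest shares of a class.
miR-702-3p: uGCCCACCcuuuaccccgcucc
miR-542-3p: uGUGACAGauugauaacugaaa
miR-152-3p: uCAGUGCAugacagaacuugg
miR-455-3p: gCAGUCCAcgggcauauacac
miR-652-3p: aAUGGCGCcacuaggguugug
miR-29a-3p: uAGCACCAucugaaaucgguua

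miR-92a-3p has a pair of gene copies, 1 at chr14:115044476-115044496 on the plus strand in an exon of the noncoding Mir17hg, the host of the miR-17-92 cluster, and 1 at chrX:52741854-52741874 on the minus strand outside other genes. miR-21a-5p lies at chr11:86584120-86584141 on the minus strand, in an exon of a Vmp1 transcript. miR-301a-3p is at chr11:87113054-87113076 on the plus strand in an intron of Ska2, and miR-152-3p at chr11:96850439-96850459 on the plus strand in an intron of Copz2. miR-221-5p is at chrX:19146344-19146369 on the minus strand outside other genes. miR-671-3p is at chr5:24592171-24592191 on the plus strand in an exon of Chpf2. miR-455-3p is at chr4:63256904-63256924 on the plus strand in an intron of the collagen gene Col27a1. miR-702-3p is at chr5:136991520-136991541 on the plus strand in an intron of Plod3.

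The 3 classes differed widely in size. Mixed additions were common and spread over many miRNAs, while C and G additions were rare outside a few names. Over the labelled libraries, mixed forms had 4733084 counts, or 5.99% of member counts, C forms 739458 counts (0.936%) and G forms 88025 counts (0.111%). For scale, A additions of the same members took 4.28% and U additions 2.58%. The median mixed share over members was 1.40%, with quartiles of 0.291 and 4.71%. The median C share was 0.0327% and the median G share 0.0382%, each taken separately over members. A share of at least 1% was found in 144 members for mixed, 16 for C and 8 for G additions. At least 10% was found in 29 members for mixed, 2 for C and 0 for G additions. For C, 66 members had no entry and another 14 entries were 0 in every labelled library. For G these numbers were 58 and 26, and for mixed 6 and 13.

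**Figure D1:**
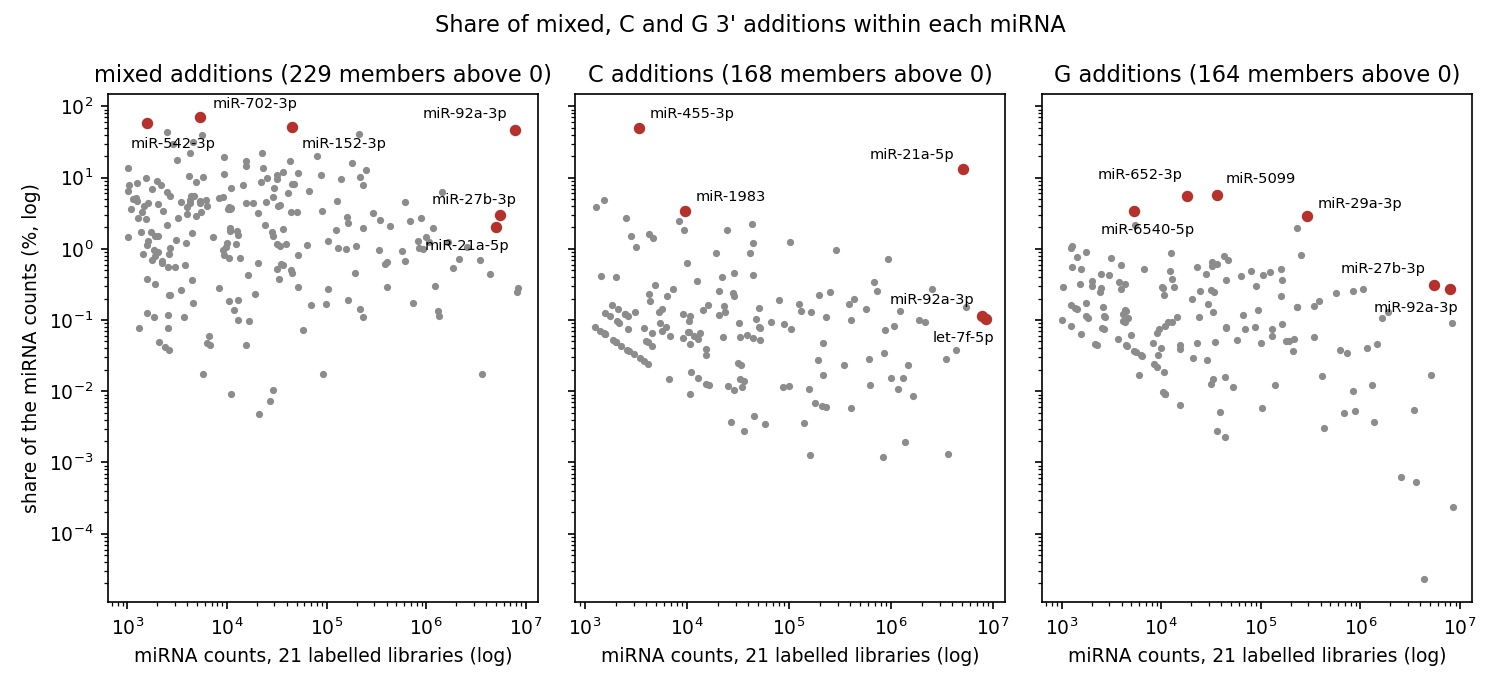
Each point is a member with at least 1 count of the class in the labelled libraries. The horizontal axis is its miRNA count over the 21 labelled libraries and the vertical axis its class share in percent, both on log scales, and red points are the names with the most counts or the highest shares. Mixed shares spread widely around their median of 1.40%, while C and G shares lie mostly below 1%, apart from a few names such as miR-455-3p, miR-21a-5p, miR-5099 and miR-652-3p.

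Most counts of each class came from a few names. miR-92a-3p, a member of the miR-17-92 cluster that promotes proliferation, held 76.7% of all mixed counts and 24.4% of all G counts. miR-21a-5p, an abundant fibroblast miRNA that rises in fibrosis and many tumours, held 89.2% of all C counts. The 5 leading names held 86.1% of mixed, 93.9% of C and 66.8% of G counts. Within miR-92a-3p, 46.2% of labelled counts were mixed, 48.8% carried bases that continue the hairpin (templated) and 2.95% were canonical. Within miR-21a-5p, 13.0% were C additions, 64.3% were templated extensions and 18.3% were canonical.

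Mixed forms made up much of several less abundant members. Among forms with at least 100 counts, their share over the labelled libraries was 71.8% for miR-702-3p, 57.6% for miR-542-3p, 51.5% for miR-152-3p, a miRNA known to repress the DNA methyltransferase Dnmt1, and 43.1% for miR-3102-3p. miR-23b-3p, with 85252 mixed counts, had a share of 40.6%. By count, miR-92a-3p was followed by miR-27b-3p with 164705, miR-21a-5p with 101489 and miR-151-3p with 90842 mixed counts, at shares of 3.00, 2.01 and 6.23%. miR-27b-3p and miR-23b-3p come from the same cluster.

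C additions exceeded 10% in miR-455-3p and miR-21a-5p alone. miR-455-3p, from a collagen gene and known for its level in cartilage, had 49.3% C additions, from 1691 of 3429 counts. The next shares among forms with at least 100 counts were 3.36% for miR-1983, 2.43% for miR-129-5p and 2.21% for miR-30a-3p. Other names with many C counts had small shares, such as miR-92a-3p at 0.112%, let-7f-5p at 0.102%, miR-27b-3p at 0.155% and miR-143-3p at 0.101%. The highest G shares were 5.69% for miR-5099, 5.60% for miR-652-3p, 3.43% for miR-6540-5p, 2.88% for miR-29a-3p, known as a repressor of collagen genes, and 2.18% for miR-674-5p. Only 0.441% of miR-5099 counts were canonical, 1.92% were trimmed, 0.00274% were templated extensions and 17.8% had added 3′ bases of any kind. The rest of its counts were in other forms. By count, G additions of miR-92a-3p (21507), miR-27b-3p (17012), miR-29a-3p (8364), miR-143-3p (7428) and miR-100-5p (4463) led.

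Members with high shares of one class were not generally the ones with high shares of another. Across the 248 members, Spearman's rho was 0.27 between mixed and C shares, 0.27 between mixed and G shares and 0.14 between C and G shares. Mixed shares went with A shares at rho 0.41 and with U shares at 0.33. These are descriptions across miRNAs that share libraries and depth, and many C and G shares are 0 or rest on few counts.

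The base that follows the mature sequence in the hairpin was known and the same in all gene copies for 178 members, and 204 had a mature sequence in RefSeq. The last 8 mature bases are printed in lower case and the hairpin bases after them in capitals for names with high shares.
miR-92a-3p, chromosome 14 copy: ccggccugUUGAGU
miR-92a-3p, chromosome X copy: ccggccugAGGAAG
miR-21a-5p: gauguugaCUGUUG
miR-152-3p: gaacuuggGCCCGG
miR-542-3p: aacugaaaGGUCUG
miR-652-3p: ggguugugCAGUGU
miR-29a-3p: aucgguuaUAAUGA
C additions were at 0 in 21 of the 34 members whose next hairpin base was C, against 9 of 32 with A, 13 of 52 with G and 9 of 60 with U. G additions were at 0 in 32 of the 52 members whose next base was G, against 7 of 32 with A, 9 of 34 with C and 11 of 60 with U. A base equal to the next hairpin base cannot be told from a templated extension by sequence. The median G share was 0.147% with next base A, 0.0512% with C and 0.0693% with U. Several names with high shares were outside these tallies. The gene copies of miR-92a-3p differ in the next base, and miR-455-3p, miR-702-3p, miR-3102-3p and miR-23b-3p had none known. Among the 34 members whose next hairpin base was C, miR-21a-5p stood apart with a C share of 13.0%. How the authors separated templated from added C for it is not given in the sources used here. For mixed additions the medians were 2.02% with next base A, 1.22% with C, 1.45% with G and 0.947% with U.

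In every experiment the mixed share of member counts was higher at 12 h than at 0 h of chase. It was 6.87, 9.32 and 7.87% at 12 h, against 4.07, 5.33 and 5.48% at 0 h, in experiments 1 to 3. The groups did not overlap. Means at 0, 2, 4, 6, 8, 10 and 12 h were 4.96 ± 0.77, 5.67 ± 1.04, 6.28 ± 1.26, 6.24 ± 1.03, 6.91 ± 1.07, 7.89 ± 1.45 and 8.02 ± 1.23% (SD, n = 3 each). The slope of the log2 share was 0.062, 0.062 and 0.047 per hour in the 3 experiments. No p is given for these sums, since the members were chosen with earlier results known. The libraries are bulk RNA, so more cells with a form and more of the form in each cell cannot be told apart.

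The abundance of miR-92a-3p moved with that increase. miR-92a-3p took 12.7 ± 2.8% of member counts at 12 h and 8.00 ± 1.8% at 0 h (SD, n = 3 each). With the weight of every miRNA held fixed, the mean slope was 0.017 per hour in place of 0.057, and the mixed share was 6.67 ± 0.17% at 12 h and 5.83 ± 0.52% at 0 h (SD, n = 3 each). Without miR-92a-3p the slope was 0.0067, 0.017 and -0.0031 per hour in the 3 experiments, and the share was 1.62 ± 0.18% at 12 h and 1.53 ± 0.058% at 0 h. The median share over members had a slope of -0.0048 per hour.

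The pooled C share was also higher at the end of the chase, by an uneven amount. The C share was 0.711, 1.57 and 1.20% at 12 h, against 0.468, 0.698 and 0.981% at 0 h. It was higher at 12 h in each experiment, but the groups overlapped. Slopes were 0.054, 0.095 and 0.014 per hour. With the weight of every miRNA held fixed, the mean slope was 0.018 per hour in place of 0.055. The C share was then 0.961 ± 0.14% at 12 h and 0.791 ± 0.15% at 0 h (SD, n = 3 each). miR-21a-5p itself took 7.75 ± 2.1% of member counts at 12 h and 5.55 ± 1.2% at 0 h (SD, n = 3 each). Without it the C share was 0.120 ± 0.019% at 12 h and 0.103 ± 0.013% at 0 h, and the slopes were 0.023, 0.024 and 0.023 per hour.

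G additions had their lowest pooled share at 2 h in each experiment. Means over the chase, from 0 to 12 h, were 0.117 ± 0.0047, 0.0933 ± 0.0080, 0.119 ± 0.017, 0.114 ± 0.0052, 0.114 ± 0.0063, 0.119 ± 0.0079 and 0.125 ± 0.020% (SD, n = 3 each). The slopes were -0.00055, 0.033 and 0.016 per hour, so the experiments did not share a direction.

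**Figure D2:**
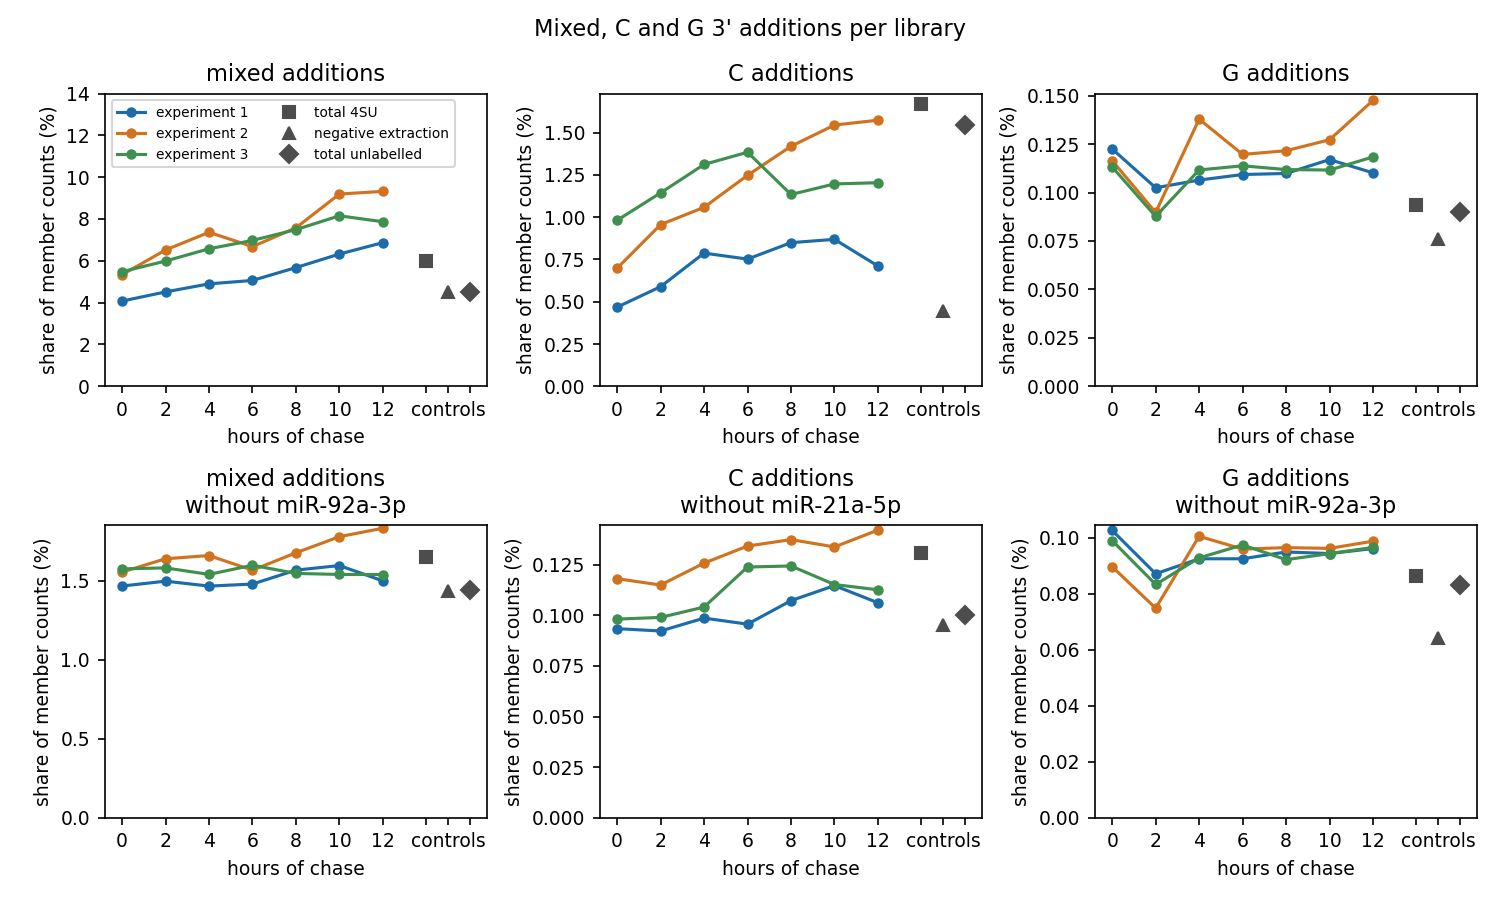
The upper row shows the mixed, C and G counts as a percent of member counts, and the lower row the same without the member that held the most counts of the class. The horizontal axis is hours of chase for 3 experiments (coloured lines), with the single control libraries at the right, and the vertical axes start at 0. Mixed shares are higher at 12 h than at 0 h in each experiment in the upper row and all libraries lie between 1.43 and 1.83% without miR-92a-3p, and G shares dip at 2 h.

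The controls gave a level for comparison, with 1 library each and intervals that cover counting error only. Total 4SU RNA had a mixed share of 5.99% (exact binomial 95% interval 5.97 to 6.01), the negative extraction 4.51% (4.44 to 4.59) and total unlabelled RNA 4.49% (4.47 to 4.50). The pooled mixed shares of labelled RNA at 12 h, 6.87 to 9.32%, lay above all 3 controls. miR-92a-3p took 10.5 to 15.8% of member counts at 12 h, against 7.48% in total 4SU, 6.40% in the negative extraction and 5.88% in total unlabelled RNA. Without miR-92a-3p the mixed shares at 12 h were 1.499, 1.83 and 1.54% in experiments 1 to 3. Total 4SU then had 1.65%, above experiments 1 and 3. The negative extraction had 1.43% and total unlabelled RNA 1.44%, below all 3 experiments. The C share was 1.67% (1.66 to 1.68) in total 4SU, 0.448% (0.423 to 0.473) in the negative extraction and 1.55% (1.54 to 1.56) in total unlabelled RNA, and labelled RNA at 0 h lay below both total RNA libraries. miR-21a-5p took 11.0% of member counts in total 4SU, 3.42% in the negative extraction and 13.4% in total unlabelled RNA. The G share was 0.0936% (0.0908 to 0.0965) in total 4SU, 0.0762% (0.0664 to 0.0870) in the negative extraction and 0.0898% (0.0875 to 0.0921) in total unlabelled RNA, and all 3 labelled libraries at 0 h were above these. Labelled and total RNA never shared a code in the second header line, so a difference between them cannot be told apart from that code.

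Within single miRNAs the controls gave no uniform direction. Among forms with at least 100 labelled counts, total 4SU was above total unlabelled RNA in 92 of 154 mixed, 31 of 48 C and 20 of 47 G forms. The labelled mean at 0 h was above total 4SU in 61 of 154 mixed, 21 of 48 C and 29 of 47 G forms. In the negative extraction, miR-218-5p had 41.2% mixed additions from 14 counts, while the labelled libraries ranged over 6.14 to 21.0%. There miR-23a-3p had 16.6% mixed additions from 28 counts, while its labelled libraries ranged over 7.77 to 14.7%. These names were picked for a high ratio of the negative extraction to labelled RNA. Over all forms the tally went the other way, as the labelled mean at 0 h was above the negative extraction in 93 of 153 mixed, 28 of 47 C and 33 of 47 G forms. The negative extraction held only 12799 mixed, 1269 C and 216 G counts over all members. A lower share and too few counts can therefore not be told apart for many forms of this tally. miR-29a-3p had 3.57% G additions in the negative extraction, from 15 counts, while the labelled libraries ranged over 2.09 to 4.38%. Mixed additions of miR-92a-3p were 59.7% in total 4SU, 49.6% in the negative extraction and 53.3% in total unlabelled RNA, while the labelled libraries ranged over 39.7 to 54.8%.

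Whether the share of a form within its own miRNA moved over the chase was tested for every form of the series by edgeR's quasi-likelihood test, with Benjamini-Hochberg adjustment over 1257 forms and a threshold of 0.05. The slope is the log2 change of the share per hour. A rising share of a form can come from more of that form or less of the others, which the counts cannot tell apart. The filter on low counts left 135 of 242 mixed, 46 of 182 C and 41 of 190 G forms. In the series as a whole 3.98% of tested forms rose and 3.42% fell. Of the mixed forms tested, 10 (7.41%) rose and 1 fell, of C forms 2 (4.35%) rose and 0 fell, and of G forms 0 rose and 0 fell. DESeq2 also called 0 G forms, and had 14 mixed and 4 C forms that rose, beside 5.86% of all forms that rose and 4.68% that fell. Among G forms, 5 of 41 had an unadjusted p under 0.05. The median slope was 0.0076 for mixed, 0.032 for C, 0.0017 for G and 0.0002 for all tested forms. For comparison, 20 of 131 A forms of these members rose and 1 fell, and 1 of 104 U forms rose and 10 fell.

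With the experiment as a block, which the pairing of libraries by experiment calls for, more forms passed. Over the whole series 10.8% rose and 9.23% fell. Mixed forms then numbered 23 that rose and 3 that fell, C forms 13 and 1, and G forms 2 and 3. Every mixed and C form called without the block was called with it too, 11 of 11 and 2 of 2. Without the 0 h libraries, 9 mixed, 3 C and 1 G forms rose, beside 3.41% of all forms that rose and 2.44% that fell. With the block as well, 20 mixed, 6 C and 3 G forms rose, beside 9.59% of all forms that rose and 7.4% that fell.

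**Figure D3:**
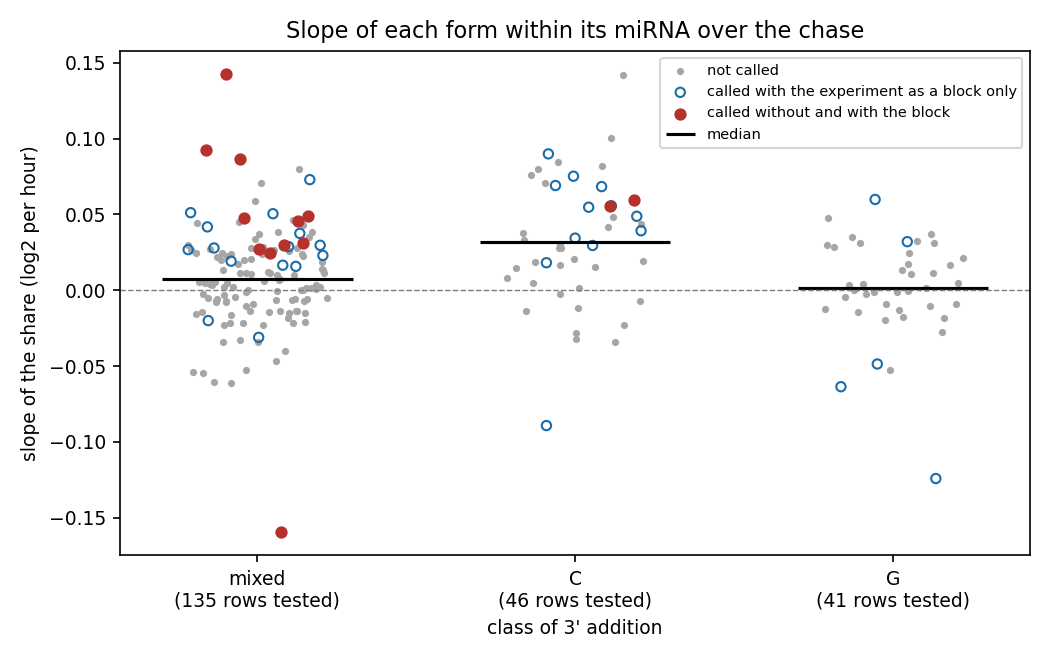
Each point is a tested form of a member, by class, with its slope in log2 share per hour on the vertical axis and random sideways spread. Red points passed without and with the experiment as a block, blue circles only with it, and black lines are medians. The C median of 0.032 lies above the mixed median of 0.0076 and the G median of 0.0017, and a single mixed form, miR-301a-3p, lies far below 0 among the red points.

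Among forms that passed, the largest fall was in mixed additions of miR-301a-3p, a miRNA that shares its seed with miR-130b-3p. They were 4.82, 6.13 and 2.37% of the miRNA at 12 h, from 34, 19 and 9 counts, against 18.99, 14.5 and 14.0% at 0 h, from 117, 39 and 15 counts. The groups did not overlap. From 0 to 12 h the means were 15.8 ± 2.7, 19.04 ± 8.8, 11.0 ± 4.0, 14.6 ± 3.1, 6.92 ± 2.5, 7.46 ± 0.63 and 4.44 ± 1.9% (SD, n = 3 each). Its slope was -0.160 (SE 0.025, adjusted p = 0.00033, and 1.84e-05 with the experiment as a block). With no block and without experiment 1 the adjusted p was 0.0572. With the block, this form kept its call when any 1 experiment or the 0 or 12 h libraries were left out. The abundance of this form against all miRNAs, scaled by TMM, had a slope of the other sign, 0.042 (adjusted p = 0.722). The fall given here is one of share within the miRNA. Total 4SU had 9.07%, the negative extraction 5.00% from 2 counts and total unlabelled RNA 5.42%.

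The largest rise among forms that passed was in mixed additions of miR-221-5p, the less abundant arm of a hairpin whose other arm represses the cell cycle inhibitor p27. They were 1.85, 2.19 and 2.12% at 12 h, against 0.907, 0.330 and 0.525% at 0 h. The groups did not overlap, although these 6 libraries held only 9 to 32 of these counts each. The slope was 0.143 (SE 0.025, adjusted p = 0.00098, and 0.00044 with the block). miR-125b-1-3p, the passenger arm of a miR-125b hairpin, had 0.403, 0.666 and 0.245% at 12 h, against 0.157, 0.273 and 0.118% at 0 h. Its groups overlapped, and its slope was 0.0927 (SE 0.021, adjusted p = 0.0078, and 0.0016 with the block). Its adjusted p with no block was 0.149 without experiment 1 and 0.116 without the 0 h libraries. With the block and without experiment 1 it was 0.0664. miR-671-3p, whose hairpin lies in an exon of Chpf2, had 3.76, 7.09 and 6.08% at 12 h, against 2.35, 2.36 and 2.84% at 0 h, with no overlap. Its slope was 0.0866 (SE 0.020, adjusted p = 0.0078, and 0.0017 with the block). With no block, the adjusted p was 0.0746 without experiment 2, 0.0512 without experiment 3 and 0.234 without the 0 h libraries. With the block and without the 0 h libraries it was 0.0986. As abundance against all miRNAs, scaled by TMM, none of these 3 forms passed. The slopes were then 0.064 for miR-221-5p (adjusted p = 0.272), 0.036 for miR-125b-1-3p (adjusted p = 0.474) and 0.015 for miR-671-3p (adjusted p = 0.815).

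The rises of miR-21a-5p and miR-99b-5p were smaller. Mixed additions of miR-21a-5p were 2.20, 2.70 and 2.48% at 12 h, against 1.78, 1.66 and 1.87% at 0 h, from 1452 to 8605 counts in each labelled library. The groups did not overlap. The means from 0 to 12 h were 1.77 ± 0.10, 1.69 ± 0.14, 1.78 ± 0.14, 1.89 ± 0.17, 2.19 ± 0.15, 2.44 ± 0.060 and 2.46 ± 0.25% (SD, n = 3 each), with every value at 8 h or later above every value at 0 to 4 h. Its slope was 0.0492 (SE 0.0063, adjusted p = 2.74e-05). Mixed additions of miR-99b-5p, from a family linked to mTOR signalling, were 0.816, 0.919 and 1.10% at 12 h, against 0.572, 0.659 and 0.679% at 0 h, with no overlap and a slope of 0.0455 (SE 0.0054, adjusted p = 1.33e-05). Scaled by TMM against all miRNAs, the abundance of the miR-21a-5p form had a slope of 0.10 (adjusted p = 0.00034) and that of the miR-99b-5p form 0.016 (adjusted p = 0.643).

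Of 10 mixed forms tested in the let-7 and miR-98 family, which represses Lin28 and Hmga2, 2 rose without the block, where 3.98% of all tested forms rose, and 4 with it, where 10.8% did. Mixed additions of let-7g-5p were 0.751, 1.10 and 0.638% at 12 h, against 0.508, 0.717 and 0.501% at 0 h. The groups overlapped. The slope was 0.0475 (SE 0.013, adjusted p = 0.0298, and 0.00047 with the block). The call without the block was lost, at adjusted p from 0.0559 to 0.0834, when any single one of 7 libraries was left out. These were 0 or 2 h of experiment 1, 10 or 12 h of experiment 2, and 0, 2 or 10 h of experiment 3. Also with no block, the adjusted p was 0.0854 without experiment 1, 0.241 without experiment 3, 0.0985 without the 0 h libraries and 0.0780 without the 12 h libraries. For TMM abundance it was 0.153. With the block, the let-7g-5p form kept its call when any 1 experiment or the 0 or 12 h libraries were left out. Other single libraries were not left out with the block. let-7a-5p also rose, with a slope of 0.0271 (adjusted p = 0.0235), and with the block let-7b-5p and let-7c-5p did too (adjusted p = 0.00010 and 0.00016). Other mixed forms that rose were miR-183-5p (slope 0.0249), miR-328-3p (0.0296) and miR-31-5p (0.0308).

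**Figure D4:**
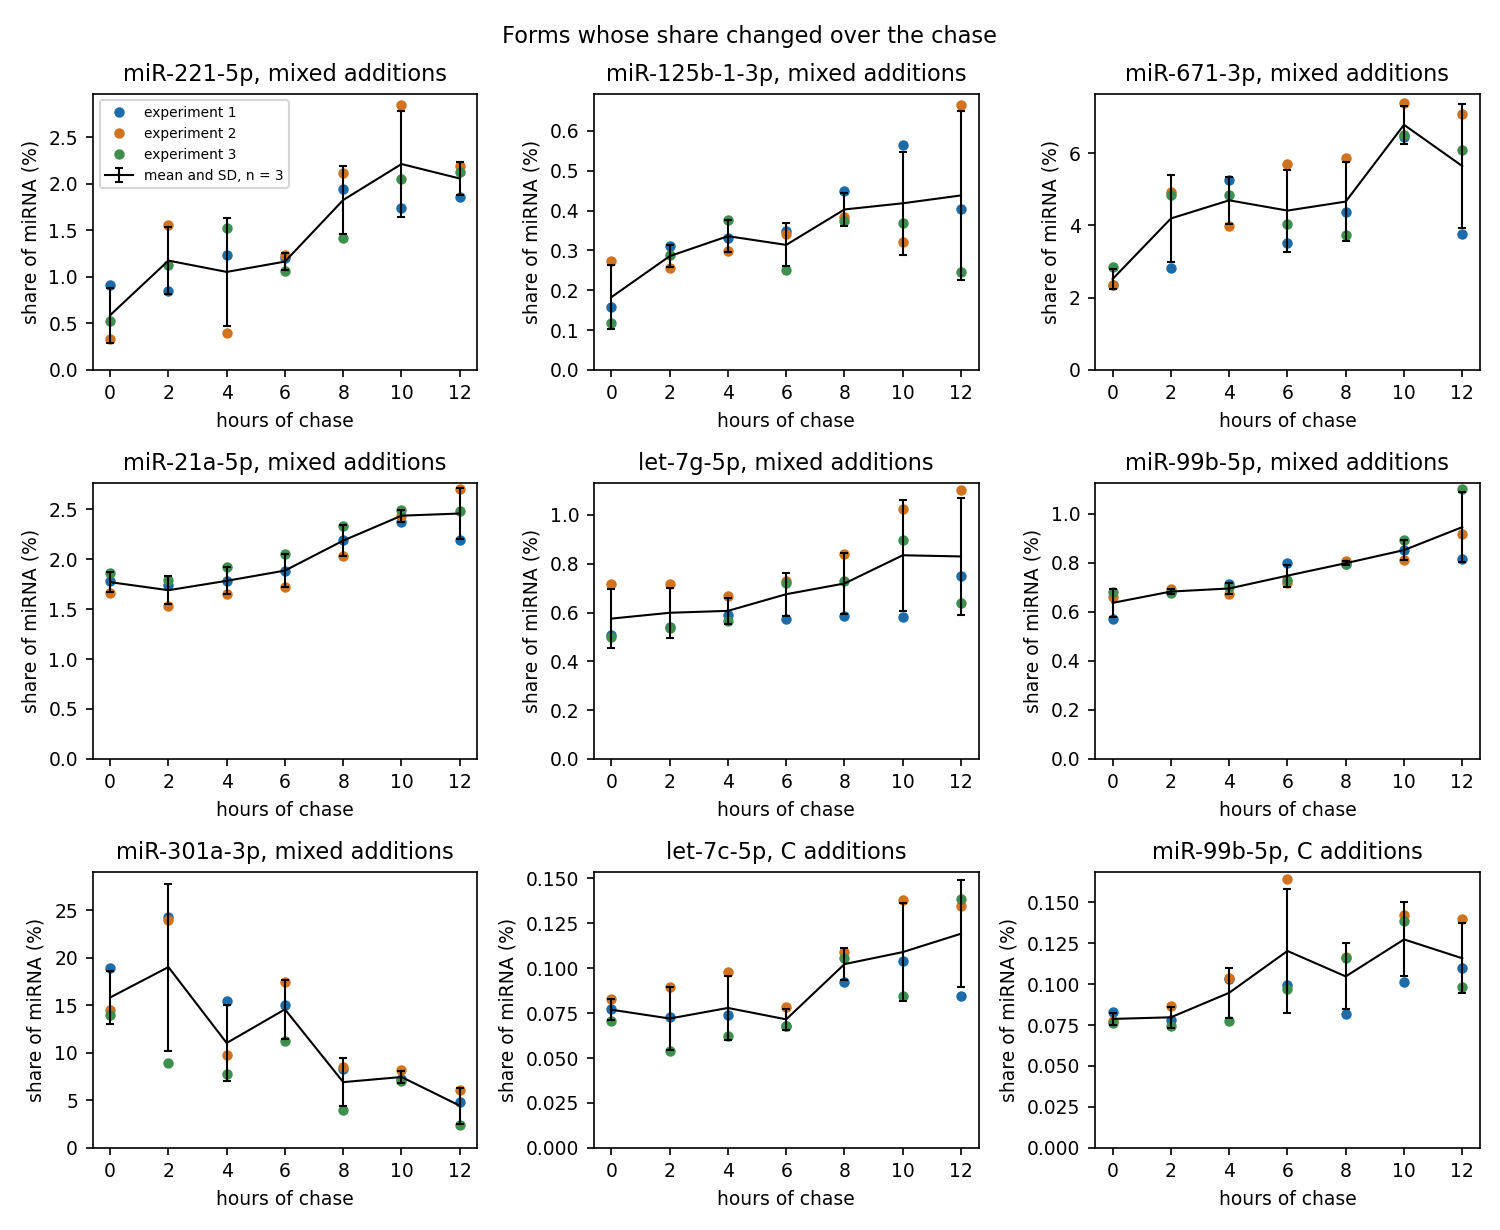
Each panel shows the share of a form within its miRNA, in percent on an axis from 0, against hours of chase. Points are single libraries coloured by experiment, and the line and bars are the mean and SD of 3 experiments. Mixed additions of miR-301a-3p fall to 4.44% at 12 h, against 15.8% at 0 h, while the other forms are higher at 12 h than at 0 h on average.

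C additions of let-7c-5p were 0.0848, 0.135 and 0.138% at 12 h, against 0.0772, 0.0826 and 0.0709% at 0 h, with no overlap. Counts were small, 26, 24 and 39 at 12 h and 91, 40 and 49 at 0 h. The slope was 0.0593 (SE 0.015, adjusted p = 0.0138, and 0.0023 with the block). With no block, the adjusted p was 0.0533 without experiment 1, 0.139 without experiment 3 and 0.106 without the 12 h libraries. miR-99b-5p was the only other C form called without the block, at 0.110, 0.140 and 0.0980% at 12 h, against 0.0827, 0.0776 and 0.0760% at 0 h, again with no overlap. Its slope was 0.0553 (SE 0.014, adjusted p = 0.0138, and 0.0019 with the block). With no block, the adjusted p was 0.147 without experiment 3 and 0.117 without the 0 h libraries. Its mixed and C forms both rose. With the block, the let-7c-5p and miR-99b-5p C forms kept their calls when any 1 experiment or the 0 or 12 h libraries were dropped. With TMM abundance the slopes of these C forms were 0.039 for let-7c-5p (adjusted p = 0.474) and 0.029 for miR-99b-5p (adjusted p = 0.519). All 8 let-7 C forms tested had slopes above 0, with a median of 0.055. Of these, 1 rose without the block and 6 with it (3.98 and 10.8% of all tested forms), namely let-7a-5p, let-7b-5p, let-7c-5p, let-7d-5p, let-7e-5p and let-7g-5p, at adjusted p of 0.0018 to 0.0451. Over all 46 C forms tested, 37 slopes were above 0. Leaving out the 0 h library of experiment 2, or of experiment 3, gave 4 C forms that rose in place of 2. There were 5 without experiment 2, 1 without experiment 1, 0 without experiment 3, 1 without the 12 h libraries and 1 with no filter on low counts. The share of all forms that rose in these fits is not given.

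C additions of miR-21a-5p, the bulk of the class, did not pass for the slope. They were 11.0, 14.7 and 14.0% at 12 h, against 8.65, 10.7 and 13.1% at 0 h, and the groups overlapped. The means from 0 to 12 h were 10.8 ± 2.2, 13.8 ± 3.0, 14.5 ± 3.2, 13.9 ± 2.8, 14.4 ± 2.8, 14.3 ± 2.7 and 13.2 ± 2.0% (SD, n = 3 each). The slope was 0.017 (SE 0.015, adjusted p = 0.608, and 0.116 with the block), and without the 0 h libraries it was -0.00415. With the block and without the 12 h libraries it was 0.030 and passed (adjusted p = 0.0249). Against 0 h, the share was higher by 0.35 at 2 h and by 0.29 at 12 h on the log2 scale, both of which passed with the block only (adjusted p = 0.0187 and 0.0061). C additions of miR-455-3p ranged over 0 to 63.6% in single libraries. Experiment 2 at 12 h held none of them among 8 counts of the miRNA. The slope was 0.0084 (adjusted p = 0.917). miR-152-3p was the C form that fell with the block, at 0.917, 0 and 0.441% at 12 h, against 1.43, 2.68 and 1.08% at 0 h (adjusted p = 0.0308 with the block, 0.0875 without).

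Mixed additions of miR-92a-3p were 52.7, 49.1 and 54.8% at 12 h, against 43.5, 40.1 and 50.4% at 0 h. They were higher at 12 h in each experiment, though the 0 h value of experiment 3 was above the 12 h value of experiment 2. The slope was 0.019 (SE 0.0060) and missed the threshold without the block (adjusted p = 0.0538) and passed with it (adjusted p = 0.0027). It also passed in DESeq2 (adjusted p = 0.039). Leaving out the 8 or 10 h library of experiment 1, or the 0, 2 or 4 h library of experiment 3, brought it under the threshold (adjusted p of 0.0093 to 0.0467). miR-152-3p mixed additions were 55.3, 63.5 and 55.3% at 12 h, against 49.0, 53.3 and 51.0% at 0 h, with no overlap. They passed with the block only (slope 0.016, adjusted p = 0.0049, and 0.128 without), or when experiment 2 gave no 2 h library (adjusted p = 0.0418). miR-27b-3p mixed additions had a negative slope, -0.020, that passed with the block only (adjusted p = 0.0284, and 0.457 without), or without experiment 2 (slope -0.028, adjusted p = 0.0316).

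Several high mixed shares did not pass the test for the slope. Mixed additions of miR-151-3p were 5.97, 6.44 and 6.26% at 12 h, against 6.61, 5.91 and 6.39% at 0 h, with a slope of -0.0022 (SE 0.0038, adjusted p = 0.866). miR-23b-3p had 40.6, 40.8 and 37.9% at 12 h, against 41.6, 43.0 and 42.5% at 0 h, with a slope of -0.0072 (SE 0.0049, adjusted p = 0.448). miR-702-3p, the member with the highest mixed share, had 67.0, 66.7 and 63.0% at 12 h, against 75.9, 72.0 and 77.0% at 0 h, and the groups did not overlap. Its slope of -0.014 did not pass (adjusted p = 0.214, and 0.145 with the block). Its SE of 0.0042 was derived from edgeR's F statistic and is smaller than edgeR's unadjusted p of 0.039 implies. The miRNA count that the test sets the form against includes the form itself. How this acts at so high a share was not tested. miR-542-3p had 71.1, 71.4 and 71.0% at 12 h, against 57.8, 58.1 and 63.5% at 0 h, from 10 to 108 counts, with a slope of 0.013 (adjusted p = 0.859).

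Among G forms, miR-29a-3p had 3.27, 4.38 and 4.17% at 12 h, against 2.50, 3.29 and 3.68% at 0 h, and the groups overlapped. Its slope was 0.032 (SE 0.015, adjusted p = 0.218, and 0.0168 with the block). G additions of miR-183-5p also rose with the block (adjusted p = 0.0181, and 0.101 without). Those of miR-130b-3p, miR-191-5p and miR-21a-5p fell with it, at adjusted p of 0.0189, 0.0474 and 0.0143, against 0.072, 0.217 and 0.265 without. Of these, miR-21a-5p had a G share of only 0.0171%. G additions of miR-92a-3p had no steady direction, at 0.230, 0.407 and 0.280% at 12 h and 0.423, 0.363 and 0.277% at 0 h (slope -0.0042, adjusted p = 0.984).

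The end of the chase was also set against its start, 12 h against 0 h. Over the whole series 0.875% of forms rose and 0.557% fell. Among members, 4 mixed forms rose and 1 fell, and 0 C and 0 G forms passed, of which 8 and 1 had an unadjusted p under 0.05. The log2 ratio of the share was 1.77 for miR-221-5p (SE 0.39, adjusted p = 0.0294), 1.11 for miR-671-3p (SE 0.26, adjusted p = 0.0405), 0.57 for miR-99b-5p (SE 0.090, adjusted p = 0.0031), 0.47 for miR-21a-5p (SE 0.088, adjusted p = 0.0076) and -1.88 for miR-301a-3p (SE 0.36, adjusted p = 0.0090). With the block, 17 mixed forms rose and 1 fell, 2 C forms rose, and 1 G form rose and 1 fell, while 5.33% of all forms rose and 4.77% fell. With the block, the adjusted p was 0.0146 for miR-221-5p, 0.0087 for miR-671-3p and 0.00021 for miR-301a-3p. The leave-out fits given next had no block. In them, the calls of miR-221-5p and miR-671-3p were sensitive to single libraries. Each was lost when the 12 h library of experiment 2 or 3 or the 0 h library of experiment 2 or 3 was left out, miR-221-5p also without the 12 h library of experiment 1 and miR-671-3p also without the 0 h library of experiment 1, at adjusted p of 0.0565 to 0.177. The log2 ratio in these fits stayed at 1.498 to 1.84 for miR-221-5p and at 0.936 to 1.197 for miR-671-3p. The call of miR-301a-3p was lost at adjusted p = 0.117 when experiment 1 gave no 0 h library, and at 0.0532 when experiment 3 gave no 12 h library. Its log2 ratios were then -1.69 and -1.61. Leaving out any 1 experiment also ended the calls of miR-221-5p, miR-671-3p and miR-301a-3p, at adjusted p of 0.0643 to 0.466. Leaving out experiment 2 or 3 ended that of miR-99b-5p (adjusted p = 0.0837 and 0.193).

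The contrast of 2 h with 0 h was added after the class shares were seen, to look at the low G share at 2 h. It called 0 forms in the series (0% in each direction) by edgeR and 0 by DESeq2, and 30 of 1257 had an unadjusted p under 0.05. Of 41 G forms, 13 were higher at 2 h than at 0 h, with a median log2 ratio of -0.22, while the median was 0.049 for mixed, 0.0078 for C and 0 for all forms. G additions of miR-652-3p were 4.05, 2.17 and 3.58% at 2 h, against 6.89, 6.50 and 8.00% at 0 h. Those of miR-6540-5p were 1.59, 1.26 and 1.60% at 2 h, from 11, 2 and 3 counts, against 5.81, 4.65 and 5.22% at 0 h, from 30, 10 and 7 counts. Those of miR-100-5p were 1.43, 1.38 and 1.24% at 2 h, against 2.19, 2.21 and 2.47% at 0 h. In these 3 names, shown for their fall, the groups did not overlap. How many of all G forms had no overlap was not counted. The log2 ratios of these 3 names were -1.04, -1.77 and -0.76. Of these 3 miR-6540-5p alone passed with the block (adjusted p = 0.0319, and 0.207 without), beside 0.318% of all forms that rose and 0.159% that fell. G additions of miR-92a-3p, which led by count, were 0.129 to 0.281% at 2 h and 0.277 to 0.423% at 0 h, with overlap (log2 ratio -0.81). Those of miR-5099, with the highest G share, were higher at 2 h (log2 ratio 0.22).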

How the data were processed

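Small RNA libraries of 3T9 cells were read from one table of raw counts per isoform class, deposited by the authors, with 7129 entries and 1 duplicate entry removed. The submitters' processing notes name CASAVA 1.8.0. How reads were aligned and annotated, how reads shared by near-identical miRNAs were counted, and what "mixed" means is not given in the sources used here. Totals of non-templated 3′ additions equalled the sum of their 5 classes by base in all 21000 cells compared, so only the classes were used. The members and lists were chosen with earlier results of these data known.

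Shares were fitted with edgeR 4.0.16 (limma 3.58.1, R 4.3.3) by glmQLFit and glmQLFTest on counts of every form, with the log of the summed count of the same miRNA and library as offset and filterByExpr on time points. A slope is relative to that miRNA and uses no spike-in. DESeq2 1.42.0 was an alternative. The fit with no block was tested on simulated data drawn with no difference between experiments, so that test does not cover pairing by experiment. Adjusted p-values are edgeR's with Benjamini-Hochberg adjustment unless DESeq2 is named. Intervals are exact binomial and cover counting error only, since no molecular identifiers are named in the labels. Depth was lowest in the negative extraction, where shares are least precise.

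Named forms were, per class, the 5 with the most counts, the 5 with the highest share among those with at least 100 counts, up to 5 per direction past the threshold for the slope and up to 3 for 12 h against 0 h, and up to 3 with the largest ratio of negative extraction to labelled share among those with at least 10 counts there. Others were named after their values were seen.

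The experiment number paired the libraries. Log shares were centred on each chase time, and all 63 library pairs from one experiment then had positive correlations, 0.118 to 0.449 with a median of 0.255, against -0.322 to 0.131 (median -0.131) in 126 pairs from different experiments. The tests had no experiment term, and the fit with the experiment as a block stands beside results it changed. A code of unexplained meaning stands in the second header line. Experiment and this code coincide, the negative extraction shares the code of experiment 1, and both total RNA libraries have a code of their own. The 0 h library of experiment 1 has another prefix than the rest of its experiment. Without it 9 mixed and 2 C forms rose, in place of 10 and 2, and the share of all forms that rose is not given.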

Additional observations from a re-analysis of the deposited data

How the results depend on the processing

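The mean slope of the pooled mixed share (0.057) was 0.017 with fixed miRNA weights, 0.0069 without miR-92a-3p, 0.0076 with both (chosen after seeing the data) and -0.0048 for the median over members, which gave no value for C and G because their median was 0 in some libraries. Leaving out an experiment gave 0.054 to 0.062 for mixed, 0.034 to 0.075 for C and 0.0077 to 0.025 for G.

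Block fits that leave out libraries, and the contrast of 2 h with 0 h, were chosen after seeing the data. Over all tested forms, 3.98% rose and 3.42% fell, and with the block 10.8 and 9.23%. With the block without the 0 h libraries 9.59 and 7.4% did, without these libraries alone 3.41 and 2.44%, and in DESeq2 5.86 and 4.68%. For the other fits the share over all forms is not given. A change in their counts therefore cannot be told apart from a change over the whole series. Mixed forms that rose (10) numbered 23 with the replicate block, 20 with the block without the 0 h libraries and 22 with the block without the 12 h libraries. C forms that rose (2) numbered 13, 6 and 10 in these fits, 4 in DESeq2, 1 without a filter on low counts, 4 for abundance with DESeq2 size factors and 1 without the 12 h libraries. G forms that rose (0) numbered 2, 3 and 1 in the block fits, 1 for abundance with TMM, 1 with DESeq2 size factors and 1 without the 0 h libraries. Mixed forms that fell (1) numbered 3 with the block, 4 with the block without the 0 h libraries, 3 with TMM abundance, 2 with size factor abundance and 0 among members with at least 10000 counts. C forms that fell (0) numbered 1 with the block, 1 in DESeq2, 2 with TMM abundance and 1 with size factor abundance, and G forms that fell (0) 3 with the block and 1 with the block without the 12 h libraries. Over fits that leave out an experiment or a library, rising forms numbered 6 to 24 for mixed (19, 21 and 24 with the block), 0 to 10 for C (4, 7 and 10 with the block) and 0 to 2 for G, and falling ones 0 to 5, 0 to 1 and 0 to 4.

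For 12 h against 0 h, mixed forms that rose (4) numbered 17 with the block, 0 with TMM abundance, 2 with size factor abundance and 0 with the 6 compared libraries alone, and those that fell (1) numbered 0 in the last 3 and 0 among members with at least 10000 counts. With the block 2 C forms rose and 1 G form rose and 1 fell, and without a filter 1 G form fell. Without a library or experiment, 0 to 3 mixed forms rose and 0 to 2 fell. For 2 h against 0 h, 1 C form rose and 1 G form fell with the block, and without a filter 1 C and 2 G forms fell. Over all forms with the block, 5.33% rose and 4.77% fell for 12 h against 0 h. For 2 h against 0 h these were 0.318 and 0.159%. For the other fits of these contrasts the share over all forms is not given.

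Some slopes changed sign. Abundance scaled by TMM or by DESeq2 size factors asks another question, since it is relative to all miRNAs, and gave 0.042 and 0.048 for mixed miR-301a-3p (12 h against 0 h 0.042 and 0.17), 0.012 and 0.017 for mixed miR-27b-3p, -0.027 and -0.023 for mixed miR-152-3p and 0.067 and 0.073 for G additions of miR-92a-3p. C additions of miR-21a-5p had -0.00415 without the 0 h libraries and -0.00284 with the block too. G additions of miR-92a-3p had 0.032 without the 0 h libraries, 0.032 with the block too, 0.0192 without experiment 1, and -0.018 to 0.020 over all fits that leave out an experiment or a library. The cause was not tested.

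Alternatives were tallied for the slope of named forms called without or with the block, or with the most counts of their class. For 12 h against 0 h, the tally took the forms named for passing it. In this tally 509 values kept their direction and side of the threshold, 73 lost the call, 35 gained it and 19 changed sign. The filter on low counts left 46 of 182 C and 41 of 190 G forms. Counts at 12 h are the smallest, and the negative extraction gives few counts per form. Sequences covered 204 of 248 members.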

Other observations

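Of all forms tested in the series 3.98% rose and 3.42% fell, and of mixed forms 7.41% rose. By arm, mixed forms were 7 that rose and 0 that fell of 71 on 5p arms, and 3 that rose and 1 that fell of 62 on 3p arms. By next hairpin base, 4 of 33 mixed forms with U rose, 3 of 34 with G, 1 of 17 with C and 0 of 13 with A, where 1 fell. The shares that rose were 9.86% for 5p and 4.84% for 3p arms, and 12.1, 8.82, 5.88 and 0% for U, G, C and A. The differences between these groups were not tested.

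In labelled RNA, miR-30e-5p had 3.25% mixed additions on a miRNA of which 95.8% of counts were templated extensions and 0.385% canonical. miR-218-5p had 16.99% mixed additions beside 65.7% templated extensions. miR-29a-3p had higher shares at 12 h than at 0 h in each of the 3 classes on average, 4.76 ± 1.2 against 3.18 ± 0.98% for mixed, 1.42 ± 0.22 against 0.999 ± 0.28% for C and 3.94 ± 0.59 against 3.16 ± 0.60% for G additions (SD, n = 3 each). All 3 passed for the slope with the experiment as a block only, at adjusted p of 0.00027, 0.0088 and 0.0168 by edgeR.

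C additions of miR-27b-3p were 0.470% in total 4SU and 0.272% in total unlabelled RNA, while the 21 labelled libraries ranged over 0.125 to 0.197%. The share was higher in both total RNA libraries than in any labelled library, with 1 library of each kind and no replicate. This form was also among the C forms with the largest ratio of negative extraction to labelled share. Total RNA had its own code in the second header line, so that difference cannot be told apart from the code.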
